A study of Mus musculus with 5 samples.

Results

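The genes described here are 9 that act on the extracellular matrix or hold back the enzymes that do, in 4T1 lung metastases of mice treated beforehand with tumor-secreted factors (TSF) or control medium (CM). They comprise 5 proteases (Mmp9, Mmp14, Plau, Ctsb and Ctsl), 1 protease receptor (Plaur) and 3 inhibitors (Timp1, Timp2 and Timp3). They were chosen by name, as well-known matrix proteases and their inhibitors, from the 23771 genes of the table of day 16 cancer cells. All 9 were measured, and 8 of them had a UMI in at least 10% of cells in the CM library, the TSF library or both, which is the minimum for a gene to be counted in the comparisons below.

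Female BALB/c mice received intravenous TSF, a medium in which cut pieces of resected mammary tumors had been kept, or CM, the same medium kept without tumor, in 3 injections per week for 3 weeks. All mice then received 25000 4T1 cells intravenously. The cells are a mouse mammary carcinoma line and carried the surface reporter CD90.1. Both groups were injected with these cells, and by design the groups differ in the medium given to the host before. Lungs were taken 16 days later, at 11 weeks of age, and dissociated enzymatically for single-cell RNA sequencing. Cells from 3 mice were pooled into each library, with 1 CM library and 1 TSF library at day 16, so that no difference between them has a replicate check and no test was made. The day 11 libraries held 6 (CM), 32 and 43 (TSF) cancer cells, and gene levels of those cells were not analysed here.

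The CM library held 29 cancer cells and the TSF library 139, with medians of 27679 and 26615 UMIs per cell and totals of 726849 and 3937739 UMIs. Cells under 10000 UMIs made up 27.6% of the CM cancer cells (8 cells, exact 95% interval 12.7 to 47.2%) and 10.1% of the TSF cancer cells (14 cells, 5.62 to 16.3%). The lowest count was 973 UMIs in a CM cancer cell and 909 UMIs in a TSF cancer cell. No cancer cell barcode was shared between both libraries. The cancer cell label was set beside 8 carcinoma genes, and all 8 were above the 10% minimum. Either library is enough to meet that minimum, so this count does not check the label of the CM cells. Cdh1 met it in the TSF library alone, in 2 of 29 CM and 35 of 139 TSF cells. Cldn4 was in 3 CM and 25 TSF cells. Cldn7 was in 31.0% of CM and 53.2% of TSF cells, Krt19 in 31.0% and 38.1%, and Krt7 in 62.1% and 61.2%. Krt8 and Krt18, keratins of simple epithelium, were in at least 96.6% of cells of either library. Epcam, an epithelial adhesion protein, was in 27.6% of CM and 68.3% of TSF cancer cells, and the reporter CD90.1 was in 2 of 29 and 48 of 139 cells. For both of these genes the exact intervals of the shares did not overlap.

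The extracellular matrix is cut by several protease families that work in sequence. Matrix metalloproteases are secreted as inactive precursors or, like Mmp14, sit in the plasma membrane, and they cleave collagens, gelatin and other matrix proteins. The serine protease uPA (Plau) binds its receptor uPAR (Plaur) at the cell surface and turns plasminogen into plasmin, which cuts fibrin and activates other precursors. Cathepsins B and L (Ctsb, Ctsl) are cysteine proteases of the lysosome that tumor cells can also secrete. Tissue inhibitors of metalloproteases (Timp1 to Timp3) bind the active site of these enzymes, and Timp2 is also part of the complex in which Mmp14 activates pro-MMP2. In carcinomas both sides of this balance are made by cancer cells and by the cells around them.

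By the log2 ratio of (mean CP10k + 1), the largest differences among the 9 genes were in the plasminogen activator pair, and both were lower in the TSF library. Plau stood at 1.77 CP10k (UMIs per 10000 UMIs of a cell, averaged over all cancer cells) in the CM library and at 0.668 CP10k in the TSF library, 2.64-fold lower with no pseudocount. Plaur stood at 2.99 and 1.35 CP10k, 2.23-fold lower on that measure. By share of cells the order differed, with Plaur and Mmp9 furthest apart between the libraries. Timp1, Timp2, Ctsb and Mmp9 had higher mean levels in the TSF library, Mmp14 a lower one, and Ctsl differed by a log2 ratio of 0.03. On the scale of (mean CP10k + 1), which compresses the differences of low genes, 2 of the 8 genes above the minimum were at least 1.5-fold lower in the TSF library (Plau and Plaur) and 0 were at least 1.5-fold higher. Among all 10201 genes above the minimum, 1.95% were at least 1.5-fold lower and 0.755% at least 1.5-fold higher. The median log2 ratio of the 8 genes was 0.10, beside -0.03 for all genes above the minimum.

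Promoter sequences are shown for Plaur and Timp1, the genes with the lowest and the highest log2 ratio of the 9. Each run is the 150 bases before the annotated start of transcription from RefSeq (GRCm38.p6), read 5′ to 3′ on the plus strand, from chr7:24462333-24462482 for Plaur and chrX:20870016-20870165 for Timp1. Capitals mark a match to the AP-1 motif TGANTCA, the letters bound by Fos and Jun proteins.
Plaur: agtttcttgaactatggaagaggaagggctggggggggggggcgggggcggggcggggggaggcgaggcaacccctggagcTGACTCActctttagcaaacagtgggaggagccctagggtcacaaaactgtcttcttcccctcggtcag
Timp1: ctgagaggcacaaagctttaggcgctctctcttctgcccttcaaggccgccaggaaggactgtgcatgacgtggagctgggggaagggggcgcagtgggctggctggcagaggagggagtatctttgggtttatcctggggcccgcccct

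The Plaur match begins 69 bases before the start. Promoters of 6 of the 9 genes were in the table used (Mmp14, Ctsl, Plaur, Timp1, Timp2 and Timp3), each with 250 bases before and 50 bases after the start, and Plaur was the 1 gene of these 6 with an AP-1 match. The RefSeq starts of Ctsl and Timp2 lie inside the gene coordinates given below, and so do the bases searched before them. The bases before the Timp3 start partly overlap its gene. Of 32851 promoters of this length, 7.81% held the motif on either strand, which for these letters is the same search. The cyclic AMP response motif TGACGTCA was in 0 of the 6 promoters and in 1.79% of all. Both motifs were chosen after the levels of the Fos and Jun genes given further on were known, and a match is a description of the letters, not of binding.

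**Figure D1:**
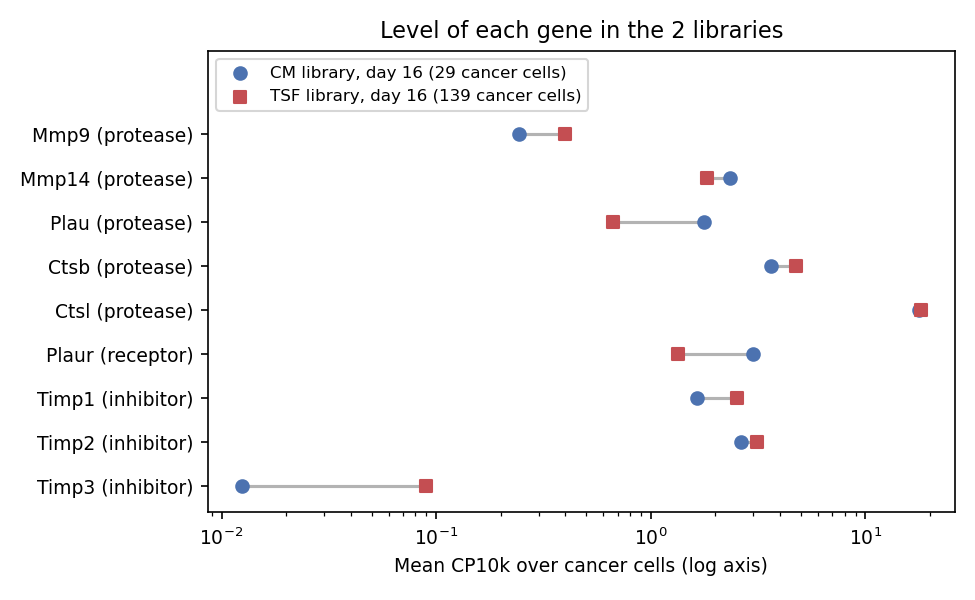
Mean level of each gene in the cancer cells of the CM library (circles, 29 cells) and the TSF library (squares, 139 cells) at day 16, in CP10k on a log axis. Plau and Plaur lie to the left in TSF, at 0.668 and 1.35 CP10k against 1.77 and 2.99 in CM, whereas Timp1, Timp2 and Timp3 lie to the right; Timp3 rests on 1 CM cell.

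Among the metalloproteases, Mmp9 and Mmp14 showed opposite differences in level while both were found in a larger share of TSF cells. Mmp9 (ENSMUSG00000017737, chr2:164940780-164955850, plus strand, GRCm38 as for all genes here) encodes gelatinase B, which cleaves denatured collagen and type IV collagen. Its mean level was 0.243 CP10k in the CM library and 0.400 in the TSF library, a log2 ratio of 0.17. A UMI of Mmp9 was seen in 5 of 29 CM cells (17.2%, exact 95% interval 5.85 to 35.8%) and in 48 of 139 TSF cells (34.5%, 26.7 to 43.1%), 17.3 percentage points more. Within the cells that had a UMI the mean was 1.41 CP10k in the CM library and 1.16 in the TSF library, so the higher mean went with more positive cells and not with a higher level in them.

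Mmp14 (ENSMUSG00000000957, chr14:54431612-54445364, plus strand), the membrane-type collagenase MT1-MMP, was measured in most cancer cells. Its level was 2.34 CP10k in the CM library and 1.83 in the TSF library, a log2 ratio of -0.24 that was below that of most genes (percentile 12.4 of genes above the minimum). It was found in 23 CM cells (79.3%, 60.3 to 92.0%) and 125 TSF cells (89.9%, 83.7 to 94.4%). The share was thus 10.6 points higher although the mean was lower, and the mean over cells with a UMI was 2.95 CP10k against 2.04.

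Plau (ENSMUSG00000021822, chr14:20836660-20843385, plus strand) was found in nearly the same share of cells in both libraries, in 15 CM cells (51.7%, 32.5 to 70.6%) and 72 TSF cells (51.8%, 43.2 to 60.3%). Its mean over cells with a UMI was 3.41 CP10k in the CM library and 1.29 in the TSF library. The log2 ratio of the levels was -0.73, at percentile 1.16 of all genes above the minimum. Of 891 genes whose shares differed by less than 1 point, 14 were at least 1.5-fold lower in the TSF library, Plau among them, and 9 were at least 1.5-fold higher. The CM mean rests on those 15 cells, and the values of single cells were not used here, so how evenly the UMIs were spread over them is not known. Each cell counts alike in a mean CP10k, so 1 UMI weighs more in a cell with few UMIs. Cells under 10000 UMIs were a larger share in the CM library. Their part in the levels of the 9 genes was not tested.

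Plaur (ENSMUSG00000046223, chr7:24462484-24475968, plus strand), the glycolipid-anchored receptor that holds uPA at the cell surface, was lower by level and by share. The log2 ratio was -0.77, at percentile 1.05. It was found in 28 CM cells (96.6%, 82.2 to 99.9%) and 110 TSF cells (79.1%, 71.4 to 85.6%), 17.4 points fewer, and the mean over cells with a UMI was 3.10 CP10k against 1.70. Plau and Plaur together summed to 4.76 CP10k in the CM library and 2.01 in the TSF library, 2.36-fold lower.

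The lysosomal proteases were in nearly every cancer cell. Ctsb (ENSMUSG00000021939, chr14:63122462-63145923, plus strand) had 3.63 CP10k in the CM library and 4.73 in the TSF library, with a log2 ratio of 0.31 and 28 of 29 and 132 of 139 cells with a UMI. Ctsl (ENSMUSG00000021477, chr13:64359337-64370890, minus strand) had 17.8 and 18.1 CP10k, in 29 of 29 and 135 of 139 cells. The Ctsl levels were the closest of the 9 genes between libraries, and the Ctsb ratio was at percentile 96.6 of genes above the minimum.

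All 3 inhibitors had a higher mean in the TSF library, with none past 1.5-fold on the log2 scale of (mean CP10k + 1). Timp1 (ENSMUSG00000001131, chrX:20870166-20874735, plus strand), a secreted inhibitor that also binds pro-MMP9, stood at 1.64 CP10k in the CM library and 2.53 in the TSF library. Its log2 ratio of 0.42 was at percentile 98.2 of genes above the minimum. The shares were alike, with 23 CM cells (79.3%, 60.3 to 92.0%) and 113 TSF cells (81.3%, 73.8 to 87.4%), and the mean over cells with a UMI was 2.07 against 3.11 CP10k.

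Timp2 (ENSMUSG00000017466, chr11:118301069-118355740, minus strand) had 2.65 CP10k in the CM library and 3.14 in the TSF library, with a log2 ratio of 0.18. It was found in 27 CM cells (93.1%) and 131 TSF cells (94.2%). Timp3 (ENSMUSG00000020044, chr10:86300372-86349506, plus strand), which is held in the matrix by its binding to proteoglycans, was in 1 CM cell (3.45%, 0.0873 to 17.8%) and 10 TSF cells (7.19%, 3.50 to 12.8%). Its levels were 0.0125 and 0.0900 CP10k. No fold is given for Timp3, because the CM value comes from 1 cell. In the annotation Timp1 and Timp3 lie inside Syn1 and Syn3 on the opposite strand, Timp2 overlaps Cep295nl and Ctsl overlaps the pseudogene Gm49230 on the same strand, and how reads in those overlaps were counted is not given in the sources used here.

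**Figure D2:**
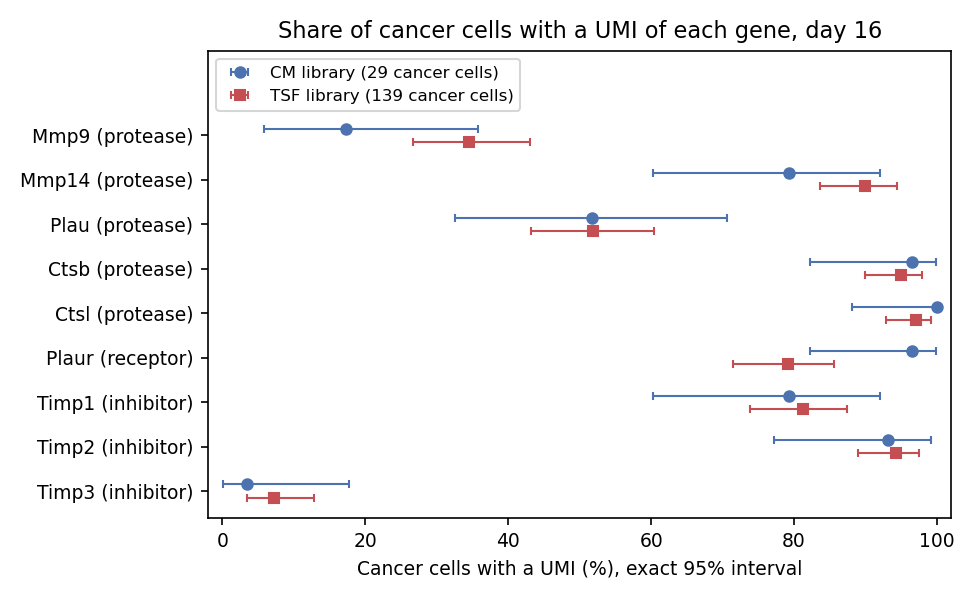
Share of cancer cells with a UMI of each gene, in percent, with exact 95% intervals, in the CM (circles) and TSF (squares) libraries of day 16. The intervals of both libraries overlap for all 9 genes, and overlap among all genes was not counted. Mmp9 is at 17.2% and 34.5%, and Plaur at 96.6% and 79.1%.

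By shares of cells, 2 of the 8 genes above the minimum were at least 10 percentage points higher in the TSF library (Mmp9 and Mmp14) and 1 was at least 10 points lower (Plaur). Among all 10201 genes above the minimum, 15.9% were at least 10 points higher and 16.1% at least 10 points lower, so these counts of 8 genes stood near those of genes in general. The exact intervals overlapped for each of the 9 genes. These intervals cover counting error only. How often intervals overlap among all genes above the minimum was not counted. Overlap or its absence is therefore not read as a result about any gene, Epcam, CD90.1 and St14 included. Shares were not brought to equal depth, and the shares of these genes in other cell types were not analysed here.

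**Figure D3:**
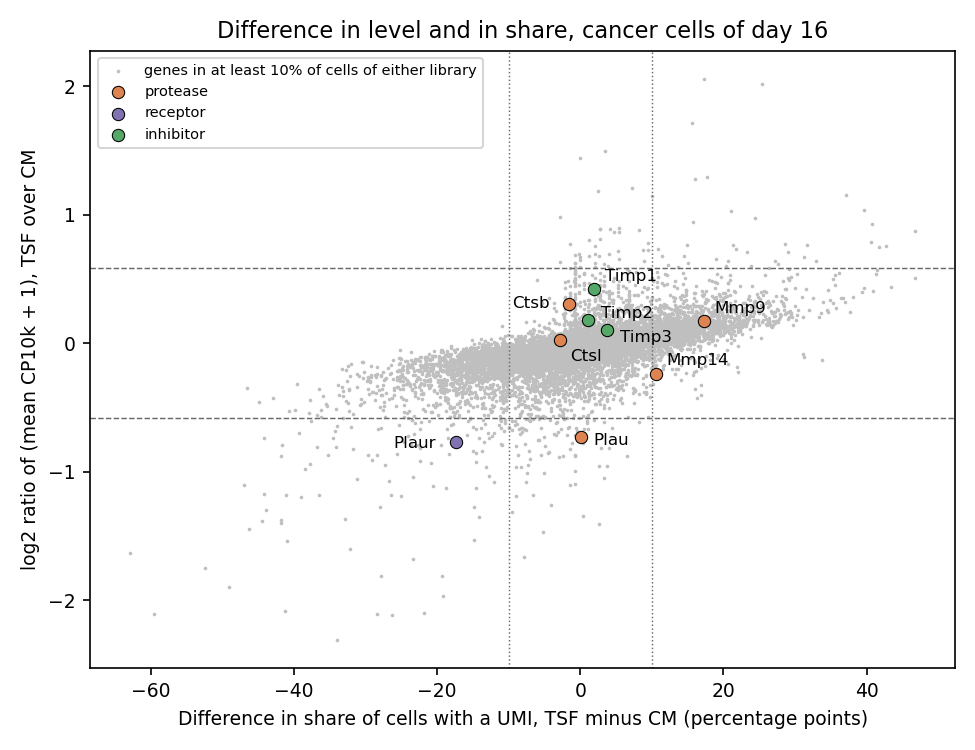
Difference in share of cells with a UMI (x axis, percentage points, TSF minus CM) and log2 ratio of (mean CP10k + 1) (y axis, TSF over CM) for the 10201 genes above the minimum (grey) and the 9 genes by role (coloured, with Timp3 shown although it is below the minimum). Dashed lines mark 1.5-fold and dotted lines 10 points; Plaur lies low and to the left, Plau low with almost no difference in share, and Mmp14 to the right but below 0.

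Set against each other as sums of mean CP10k, proteases and inhibitors did not differ alike. These are sums of UMIs, not adjusted for transcript length, so a quotient of sums has no meaning as an amount and is read only as a difference between the libraries. The 5 proteases summed to 25.7 CP10k in the CM library and 25.8 in the TSF library, a ratio of 1.00. Ctsb and Ctsl made up most of these UMIs, with 21.4 and 22.9 CP10k. The remaining Mmp9, Mmp14 and Plau summed to 4.35 and 2.90 CP10k, with the TSF sum at 0.668 of the CM sum. The 3 inhibitors summed to 4.30 and 5.76 CP10k, a ratio of 1.34. The protease sum divided by the inhibitor sum was 5.99 in the CM library and 4.47 in the TSF library, which is 0.747 of the CM value. Without the cathepsins the quotient was 1.01 in the CM library and 0.504 in the TSF library, and most of the difference in this protease sum came with Plau, a serine protease. With Mmp9 and Mmp14 alone, the 2 metalloproteases that Timp proteins bind, the sum was 2.58 and 2.23 CP10k and the quotient 0.601 and 0.388, an alternative added after the data were seen. These quotients are ratios of RNA levels in cancer cells alone, from 1 library each, and protease activity was not measured.

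**Figure D4:**
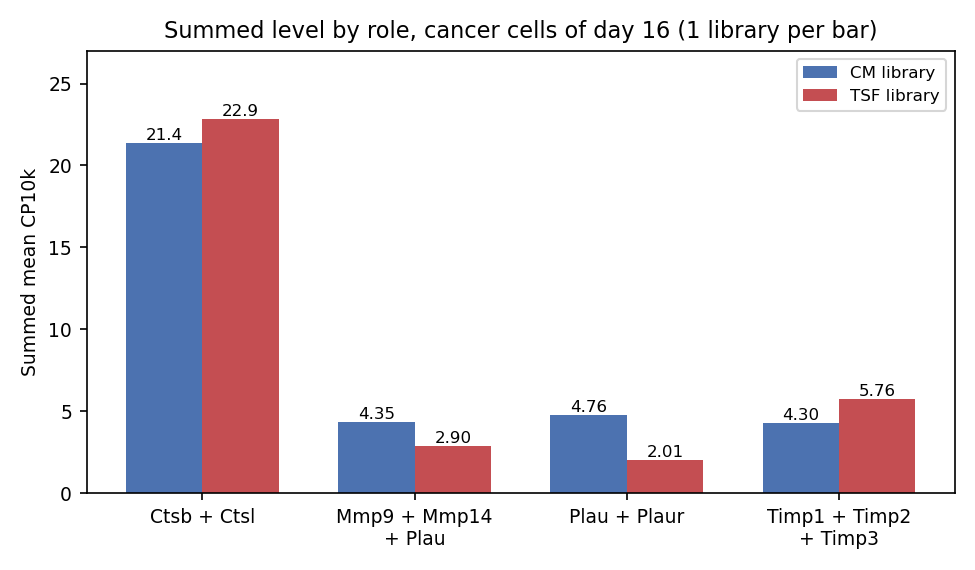
Summed mean CP10k of the cathepsins, the other proteases, uPA with its receptor, and the inhibitors in the cancer cells of the CM and TSF libraries of day 16, with 1 library per bar and no error bars. Plau enters both the second and the third pair; the cathepsin sums are 21.4 and 22.9, the Plau and Plaur sums 4.76 and 2.01, and the inhibitor sums 4.30 and 5.76.

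The 9 genes were placed among 109 genes in 8 wider lists of proteases and inhibitors, of which 58 were above the minimum. Of the 50 that are not among the 9, 1 was at least 1.5-fold higher in the TSF library and 1 at least 1.5-fold lower. The shares over all genes above the minimum were 0.755% and 1.95%. By shares, 12 of these 50 were at least 10 points higher and 2 at least 10 points lower. Among all genes above the minimum, 15.9% were at least 10 points higher and 16.1% at least 10 points lower. The median log2 ratio of the 50 was 0.01, and 27 of the 50 were above 0. Among all genes above the minimum 40.3% had a log2 ratio above 0, the figure to set beside the counts of signs below.

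The gene past 1.5-fold upward was Slpi, a secreted inhibitor of neutrophil elastase and other serine proteases. Slpi stood at 5.32 CP10k in the CM library and 24.6 in the TSF library, a log2 ratio of 2.02, in 55.2% and 80.6% of cells. The gene past 1.5-fold downward was Serpine2, protease nexin-1, which inhibits thrombin and uPA. Serpine2 stood at 0.764 and 0.117 CP10k, a log2 ratio of -0.66, in 6 CM cells and 15 TSF cells. Of 8 serine protease inhibitors above the minimum, 4 had a log2 ratio above 0 and 4 below.

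The plasminogen activation list had 7 genes above the minimum, and only Plau and Plaur in it were past 1.5-fold. S100a10 and Anxa2, which together form a plasminogen-binding complex at the cell surface, were at 18.3 and 18.8 CP10k and at 12.9 and 15.7 CP10k in the CM and TSF libraries. Plasminogen itself (Plg), named for its role with its value known, had no UMI in the cancer cells of either library. The list's median log2 ratio was -0.08.

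Of 15 metalloproteases above the minimum, 0 were past 1.5-fold, 6 had a log2 ratio above 0 and 9 below, and the median was -0.04. Adam10, a membrane sheddase, was at 1.17 CP10k in the CM library and 1.05 in the TSF library. Of genes picked after their values were seen, the stromelysin Mmp3 was at 1.15 and 0.638 CP10k, a log2 ratio of -0.39. Its relative Mmp10 was in 24.1% and 10.1% of cells. Mmp3 and Mmp10 were thus lower in the TSF library by mean level, without reaching 1.5-fold on this scale. Stromelysin-3 (Mmp11), also picked with its value known, was at 0.0992 CP10k in the CM library and 0.105 in the TSF library. Its log2 ratio was 0.01. Mmp2, the other gelatinase, also picked with its value known, was in 1 CM cell and 2 TSF cells.

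Of 9 cathepsins and legumain above the minimum, 7 had a log2 ratio above 0, with a median of 0.10, and 0 were past 1.5-fold. Legumain (Lgmn), the asparagine-specific protease of the lysosome, was at 0.443 and 0.878 CP10k, picked after its value was seen. The 3 cysteine protease inhibitors above the minimum included cystatin C (Cst3), at 5.29 CP10k in the CM library and 7.70 in the TSF library, and cystatin B (Cstb), at 6.45 and 6.75. The list of proteoglycan-degrading enzymes also held Bsg (basigin, which induces metalloproteases in neighbouring cells). All 6 genes of this list above the minimum, Bsg included, had a log2 ratio above 0, with a median of 0.15. Among them Bsg was at 6.58 and 8.45 CP10k, and the glucuronidase Gusb at 0.282 and 0.408.

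Of 7 surface and secreted serine proteases above the minimum, 0 were past 1.5-fold. Htra1, a secreted protease that cuts matrix proteins, was at 4.19 CP10k in the CM library and 2.97 in the TSF library, a log2 ratio of -0.39, and Prss22 was at 1.77 and 1.69. The epithelial protease St14 (matriptase), picked after its value was seen, was in 3 CM cells (10.3%, 2.19 to 27.4%) and 64 TSF cells (46.0%, 37.6 to 54.7%), and its intervals did not overlap. Its level was 0.0550 and 0.274 CP10k. The cytosolic inhibitor Serpinb6a was at 3.66 and 3.38 CP10k.

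The same count was taken over deposited gene sets of matrix regulation, which hold many of these genes. Of 69 genes of the matrisome set of matrix regulators above the minimum, 1 was at least 1.5-fold higher and 3 at least 1.5-fold lower, with a median log2 ratio of 0.03. In the Reactome set of matrix degradation, 59 genes were above the minimum, 2 of them higher and 2 lower. Among all genes above the minimum, 0.755% were at least 1.5-fold higher and 1.95% at least 1.5-fold lower. Counts this small are not read as a result about the sets. Matrix proteins past 1.5-fold in these sets included osteopontin (Spp1), at 30.6 and 59.8 CP10k, the collagen chain Col6a1, at 0.815 and 2.09, Col8a1, at 2.65 and 1.04, and fibronectin (Fn1), at 20.1 CP10k in the CM library and 12.9 in the TSF library. F13a1, the chain of factor XIII that crosslinks fibrin, was at 1.31 and 0.346 CP10k and in 3 CM cells. The genes just named were picked for being past 1.5-fold, in either direction, so they are not set against the proteases. No protease of the wider lists was at least 1.5-fold higher in the TSF library on the scale of (mean CP10k + 1). Beside the 0.755% of all genes above the minimum, that is not read as a result about proteases.

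Genes that tissue dissociation can induce mostly differed in the same direction as Plau and Plaur. They are immediate-early genes, Fos and Jun genes included, and the heat shock chaperones Hspa1a and Hspa1b. Of 14 such genes above the minimum, 13 had a log2 ratio below 0, with a median of -1.08. In the TSF library 8 were at least 1.5-fold lower, beside 1.95% of all genes above the minimum. Hspa1b, at 4.02 and 0.932 CP10k, was among these 8. Their summed level was 148.1 CP10k in the CM library and 64.8 in the TSF library. Jun was at 25.7 and 9.06 CP10k, Atf3 at 17.5 and 2.73, Egr1 at 11.6 and 1.92, and Fosl1 (Fra-1) at 8.39 and 2.24. Their part in the values of Plau, Plaur, Mmp3 and Mmp10 was not tested. Ribosomal protein genes took 19.3% of CP10k in the CM library and 24.7% in the TSF library, which by the scaling leaves fewer of the 10000 for other genes in the latter. With levels rescaled to the UMIs outside these genes, 2 genes were still at least 1.5-fold lower, Plau and Plaur, and 0 were higher.

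Most markers of other lung cells, some of which make the same proteases and inhibitors, were in few cancer cells, and Pdgfra had the largest shares. Their levels were not all low beside those of the 9 genes. In the TSF library the neutrophil sum given next was above the 0.400 CP10k of Mmp9. Of 8 neutrophil genes, 8 had no UMI in the CM library and 3 had none in the TSF library (Ly6g, Mmp8 and Ngp), and their sum was 0 and 1.07 CP10k. A count of 0 cells allows a share of cells with a UMI of up to 10.3% in the CM library and 2.16% in the TSF library, taken as 3 cells of the total and so lower than the exact two-sided limits of 11.9% and 2.62%. The counts came after the authors' removal of ambient RNA, so these limits hold for corrected counts only. S100a9, a calcium-binding protein abundant in neutrophils, was in 4 TSF cells, and the receptors Cxcr2 and Csf3r were in 10 and 7. Neutrophils store Mmp9, and the part of these UMIs in the 48 Mmp9-positive TSF cells was not tested. The leukocyte list was at 0 in the CM library and summed to 0.173 CP10k in the TSF library, with Coro1a in 9 and Ptprc (CD45) in 4 TSF cells. Of 10 macrophage and monocyte genes, 8 had no UMI in the CM library and 8 had none in the TSF library, Lyz2 and Csf1r in both. Cd68, a lysosomal protein of macrophages, was in 1 CM and 11 TSF cells, and the sums of the list were 0.0200 and 0.0380 CP10k. Fibroblast and mural genes summed to 0.498 and 1.11 CP10k, with Pdgfra in 44.8% and 45.3% of cells and Dcn in 2 CM and 16 TSF cells. Fibroblasts make Timp1, Timp2 and Timp3, and the part of these UMIs in the inhibitor levels was not tested. Endothelial genes summed to 0.0685 and 0.188 CP10k, alveolar genes to 0.363 and 0.120, and lymphocyte genes to 0.0184 and 0.0171.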

How the data were processed

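Per the labels and the study's methods, 10x Genomics libraries were made from pooled lungs, reads were mapped to mm10 (GRCm38.p6) with a CD90.1 sequence added, and the authors removed ambient RNA with a customised SoupX and low-quality cells by UMIs, genes and mitochondrial share. The submitters' processing notes name Cell Ranger and Seurat 4.1.0. The authors called cancer cells from clusters and CD90.1. They removed clusters of mixed markers as multiplets, checked with scDblFinder scores, and took no doublets out of the cancer cells, and no doublet caller was run here.

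The deposited gene table gives mean CP10k over cancer cells per library, the number of cells with a UMI and that number as a percent of cells. It is normalised by the authors to 10000 UMIs per cell. The deposited cell table gives UMI counts after correction and the percent of mitochondrial UMIs. Columns of the authors' own comparison (log2 fold changes, p-values, q-values, a ranking score and, in another table, enrichment scores) were not used. Cells of 2 further libraries in the cell table, which have no sample entry here, were left out.

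Log2 ratios were computed from mean CP10k with a pseudocount of 1. Genes in at least 10% of cells of either library were counted, with limits of 1.5-fold and 10 percentage points. Exact Clopper-Pearson intervals (95%) cover counting error only, since PCR copies are collapsed by UMI but mice were pooled. No test was run, since each group had 1 library. The scripts were tested on simulated data.

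The 9 genes and all lists were chosen with earlier results of these data known. From the wider lists, genes past 1.5-fold and the 2 with the highest mean level of each list are named. Others are marked as picked after their values were seen. Coordinates come from GENCODE M21. Promoters come from RefSeq and matched 6 of the 9 genes. Alternatives changed the scaling, the pseudocount, the measure of level, the minimum share and the limits. The scripts ran in Python 3.11.15 with scipy 1.17.1 for the intervals, pandas 2.3.3 and numpy 2.4.6, and matplotlib 3.10.9 drew the figures.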

Additional observations from a re-analysis of the deposited data

How the results depend on the processing

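The count of 2 genes past 1.5-fold was 4 with no pseudocount (Mmp9 and Timp1 higher, Plau and Plaur lower, when 1562 genes were higher and 3027 lower) and 0 at a limit of 2-fold (13 and 54 genes). With a pseudocount of 0.1 it was 3, with Timp1 higher, and 748 and 1762 of all genes were past the limit. The count of 3 genes past 10 percentage points was 0 at 20 points. From the share of cells alone, as a log2 ratio of the mean UMIs that share implies, Plau was at 0.0031. In the same measure Mmp14 was at 0.54 and Ctsb at -0.17, and per cell with a UMI Mmp9 was at -0.16. Plaur was below 0 in 6 of 6 alternatives (-1.15 to -0.60), and Timp1, Timp2 and Timp3 were above 0 in 6 of 6. The alternatives that change only the pseudocount cannot change a sign, and all use the same libraries, so these counts are no replicate check. The sign of Timp3 rests on 1 CM cell. The protease quotient of TSF over CM was 0.747 and ranged from 0.498 without the cathepsins to 0.897 from medians of log2 ratios, and with Mmp9 and Mmp14 alone, added after seeing the data, it was 0.645. Of the other values, 43 kept their sign and moved by less than 1.5 times. The value of Plau from the share of cells alone was the 1 that reversed a difference past 1.5-fold. Another 9 changed sign (the values of Mmp14, Ctsb and Mmp9 just given) or moved by at least that much. Timp3 did the latter with the smaller and with no pseudocount, per cell with a UMI and from the share of cells alone. The causes were not tested.

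No paired analysis was possible because each group had 1 library at day 16, and for the same reason leaving out a replicate gave no value. The precision of the shares is limited by the 29 CM cells, and differences between mice were not measured.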
